A study of Mus musculus with 12 samples.

Results

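The 10 genes described here encode regulators of cell survival and death: Bcl2, Mcl1, Bcl2l1, Bcl2l11, Bbc3 and Pmaip1 of the Bcl-2 family, the caspase-8 regulator Cflar, and the stress genes Gadd45a, Gadd45b and Gadd45g. They were chosen by symbol in the array annotation, keeping probe sets that name 1 gene and, where a gene has several, the 1 whose mean across all 12 arrays is greatest. All 10 were found, among 19937 genes measured, and 9 of them had 1 probe set and Cflar 3. Newly made RNA had been measured in 4 groups of 3 arrays: mouse bone marrow-derived macrophages (BMM) and cells of the line MPI-2, in each case either mock-treated or exposed to lipopolysaccharide (R-LPS), a component of bacterial outer membranes that activates Toll-like receptor 4.

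All 12 samples came from C57BL/6 mice or cells of that strain, and no genetic modification is given. BMM had matured ex vivo from marrow in DMEM with M-CSF, the macrophage growth factor. MPI-2 is a fetal liver-derived macrophage line kept in RPMI with GM-CSF. Both media held 10% fetal calf serum. All cells, mock groups included, took up 4-thiouridine, a uridine analogue, for 60 min. In the LPS groups this began 30 min after LPS and so covered 30 to 90 min of exposure. The arrays of a group are titled biological replicates, but separate animals or cultures are not named and all MPI-2 arrays come from 1 line, so the p-values rest on how far these arrays differ within a group, which may in part be technical.

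The Bcl-2 family controls the mitochondrial route of apoptosis. Its pro-survival proteins (Bcl-2, Mcl-1 and Bcl-xL) hold the pore-forming proteins Bax and Bak in check, and BH3-only proteins (Bim, Puma and Noxa) bind and neutralise the pro-survival proteins. c-FLIP, the product of Cflar, blocks caspase-8 at death receptors, a second route to apoptosis that inflammatory signals can open. The small Gadd45 proteins bind MAP kinase kinases and cell cycle proteins and are induced by DNA damage, stress and inflammatory stimuli. In macrophages, LPS sets off both survival signals and death signals.

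Values are deposited log2 levels, group values are means ± SD (n = 3), and changes are differences of log2 levels ± SE from limma with Benjamini-Hochberg adjustment over all 19937 genes, called at an adjusted p under 0.05. A level is not comparable between genes, since each probe set has its own response. The background level, the 95th percentile of 1027 olfactory receptor genes, was 3.36, and the 10 genes lay above it in every array (lowest value 3.73, Gadd45g). Across genes, r between arrays of a group was 0.975 to 0.989 for BMM and 0.994 to 0.996 for MPI-2. The SD of the median gene was 0.176 (mock) and 0.204 (LPS) for BMM, and 0.12 and 0.109 for MPI-2. Calls in BMM therefore rest on noisier arrays. The model gave each gene 1 spread shared by all 4 groups, so its SE is the same in both cell types. The SEs and 95% intervals thus tend to be too narrow for BMM and too wide for MPI-2. For the LPS change of Bcl2l1 the SE was 0.21, against 0.26 in a fit of the 6 BMM arrays alone and 0.095 in the 6 MPI-2 arrays alone. All 10 macrophage markers were above background in every group, with list means of 8.02 to 9.28. After LPS in BMM 6 of them fell and 1 rose, where 15.4% of all genes fell and 10.3% rose. Their list mean in BMM was 9.19 to 9.28 in mock and 8.45 to 8.69 after LPS. The part of this fall in the BMM decreases below was not tested. All 7 measured markers of GM-CSF-grown or alveolar macrophages passed as higher in MPI-2 mock than in BMM mock, where 20.6% of all genes did. List means were 2.55 to 3.04 for B cell, 2.66 to 2.92 for T or NK cell, 3.03 to 3.47 for neutrophil, 3.23 to 3.64 for dendritic cell, 3.12 to 3.41 for erythroid, 3.12 to 3.63 for hepatocyte and 3.70 to 4.13 for stromal markers. At most 2 of 5 B cell, 1 of 6 T or NK cell, 4 of 9 neutrophil, 3 of 5 dendritic cell, 1 of 3 erythroid, 3 of 5 hepatocyte and 4 of 5 stromal markers had a group mean above background. In the stromal list Pdgfra was at 6.13 in MPI-2 mock, 4.41 in MPI-2 LPS and 3.39 in BMM mock (a gene named after its values were seen), and its part in the results was not tested. Cell type cannot be told apart from growth factor, medium or array batch.

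Of the 3 Gadd45 genes, Gadd45a and Gadd45b rose after LPS in MPI-2 and Gadd45g fell, while in BMM only Gadd45b passed, as an increase. Gadd45a, a p53 target that also responds to other stress signals, read 6.00, 5.57 and 5.88 in the MPI-2 mock arrays and 9.43, 9.51 and 9.37 after LPS. In BMM it read 7.28, 6.88 and 6.88 in mock and 7.03, 7.48 and 6.55 after LPS. The MPI-2 groups were far apart and the BMM groups overlapped. Gadd45a rose in MPI-2 by 3.62 ± 0.20, or 12.3-fold (adjusted p = 6.51e-09), the 24th largest increase among all genes there. In BMM the change was 0.0042 ± 0.20 (adjusted p = 0.992), with a 95% interval of -0.42 to 0.43. The difference between the responses was 3.62 ± 0.28 (adjusted p = 3.71e-07). Mock MPI-2 made less Gadd45a RNA than mock BMM, -1.20 ± 0.20 (adjusted p = 0.00015), and after LPS MPI-2 made more, 2.42 ± 0.20 (adjusted p = 6.41e-08). The order of its levels was MPI-2 LPS (9.44 ± 0.073), BMM LPS (7.02 ± 0.47), BMM mock (7.01 ± 0.23) and MPI-2 mock (5.82 ± 0.22), and the BMM groups did not differ beyond their spread. In such bulk samples fewer cells making a transcript and less made per cell cannot be told apart.

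Gadd45b, an NF-kB target that can block the kinase MKK7 and so JNK signalling, read 8.94, 8.05 and 8.15 in BMM mock and 9.86, 10.02 and 9.46 in BMM LPS. In MPI-2 it read 5.81, 5.80 and 5.75 in mock and 8.52, 8.61 and 8.54 after LPS. Every LPS array lay above every mock array of its cell type. The rise was 1.40 ± 0.20 in BMM, or 2.64-fold (adjusted p = 5.37e-05), and 2.77 ± 0.20 in MPI-2, or 6.83-fold (adjusted p = 1.15e-07). It was larger in MPI-2 by 1.37 ± 0.28 (adjusted p = 0.00324). MPI-2 nonetheless made less Gadd45b RNA than BMM in both conditions. The deficit was -2.59 ± 0.20 in mock (adjusted p = 3.48e-08) and -1.22 ± 0.20 after LPS (adjusted p = 0.000104). The LPS-treated MPI-2 arrays, at 8.56 ± 0.047, overlapped the range of the BMM mock arrays, at 8.38 ± 0.49.

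Gadd45g, the family member known from cytokine-induced genes and T helper cells, read 6.71, 6.49 and 6.52 in MPI-2 mock and 4.02, 4.38 and 3.73 after LPS. In BMM the mock arrays read 6.91, 6.37 and 5.88, and the LPS arrays 5.91, 7.004 and 5.86. All LPS arrays of MPI-2 lay below all mock arrays, while in BMM the groups overlapped and 1 LPS array held the highest value of the gene. Gadd45g fell in MPI-2, -2.53 ± 0.29, a 5.77-fold decrease (adjusted p = 1.52e-05), and 4 genes had a larger decrease there. The BMM change was -0.13 ± 0.29 (adjusted p = 0.795), with a 95% interval of -0.74 to 0.48. The responses differed by -2.40 ± 0.40 (adjusted p = 0.000706). After LPS, MPI-2 was below BMM by -2.21 ± 0.29 (adjusted p = 1.04e-05), and in mock the cell types were at 6.57 ± 0.12 and 6.39 ± 0.51 (adjusted p = 0.634).

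The promoters of the Gadd45 genes are shown because these related genes responded differently, and that of Cflar because its gene rose in both cell types. The sequences are RefSeq's for GRCm38.p6, the 250 bases before the annotated start, 5′ to 3′ along the gene. They lie at chr6:67037408-67037657, minus strand (Gadd45a), chr10:80929841-80930090, plus strand (Gadd45b), chr13:51846425-51846674, plus strand (Gadd45g) and chr1:58711241-58711490, plus strand (Cflar). Capitals mark matches, on either strand, to any motif searched.
Gadd45a: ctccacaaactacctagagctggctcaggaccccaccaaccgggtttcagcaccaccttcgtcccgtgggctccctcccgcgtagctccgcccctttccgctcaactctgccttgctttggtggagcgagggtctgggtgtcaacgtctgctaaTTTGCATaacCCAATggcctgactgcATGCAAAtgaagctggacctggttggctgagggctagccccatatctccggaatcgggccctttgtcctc
Gadd45b: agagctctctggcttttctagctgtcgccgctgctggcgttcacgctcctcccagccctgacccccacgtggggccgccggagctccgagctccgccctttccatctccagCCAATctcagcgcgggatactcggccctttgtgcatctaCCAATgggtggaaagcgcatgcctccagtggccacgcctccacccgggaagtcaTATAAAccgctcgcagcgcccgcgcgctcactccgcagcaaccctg
Gadd45g: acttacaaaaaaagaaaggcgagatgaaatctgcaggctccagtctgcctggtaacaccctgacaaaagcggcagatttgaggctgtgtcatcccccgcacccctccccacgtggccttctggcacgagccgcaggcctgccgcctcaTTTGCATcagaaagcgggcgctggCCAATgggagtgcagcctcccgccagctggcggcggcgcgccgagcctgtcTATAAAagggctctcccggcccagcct
Cflar: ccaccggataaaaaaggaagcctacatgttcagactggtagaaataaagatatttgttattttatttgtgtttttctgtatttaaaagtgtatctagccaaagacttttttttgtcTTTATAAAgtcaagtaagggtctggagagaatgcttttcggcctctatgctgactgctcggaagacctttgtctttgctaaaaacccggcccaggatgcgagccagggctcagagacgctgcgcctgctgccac
Of 32851 promoter windows of the same length, 7.25% held the kappa B consensus. The AP-1 motif TGANTCA was in 6.75% of them. The forkhead motif GTAAACA was in 3.17%. The core of the cyclic AMP response element, TGACGT, was in 6.47%. The TATA motif TATAAA was in 12.4%. A search for CCAAT (in 33.8%) was added after the sequences were seen. So was that for the core of the octamer motif, TTTGCAT (in 4.12%). Gadd45a, which rose in MPI-2, held TTTGCAT on both sides of a CCAAT, with 2 matches from 96 to 64 bases before the start, and no TATAAA. Gadd45g, which fell, also held TTTGCAT (102 to 96 bases before the start) and CCAAT (78 to 74), with TATAAA 27 to 22 bases before the start. Gadd45b held CCAAT at 2 places and TATAAA 46 to 41 bases before the start, and no TTTGCAT. Cflar held 2 overlapping matches to TATAAA, 1 on each strand, within 134 to 127 bases before the start. None of these 4 windows held the kappa B, AP-1, forkhead or cyclic AMP motif as searched, which says only that those letters are not in this stretch. Of the other members 5 had a window in the table, and the forkhead motif was in 1 of 2 windows of Bcl2l11 and 1 of 3 of Bbc3. The kappa B consensus was in 1 of 3 windows of Bcl2l1 and 1 of 3 of Bbc3, and the cyclic AMP core in the window of Bcl2. CCAAT was in both windows of Bcl2l11 and 1 of Bbc3.

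**Figure D1:**
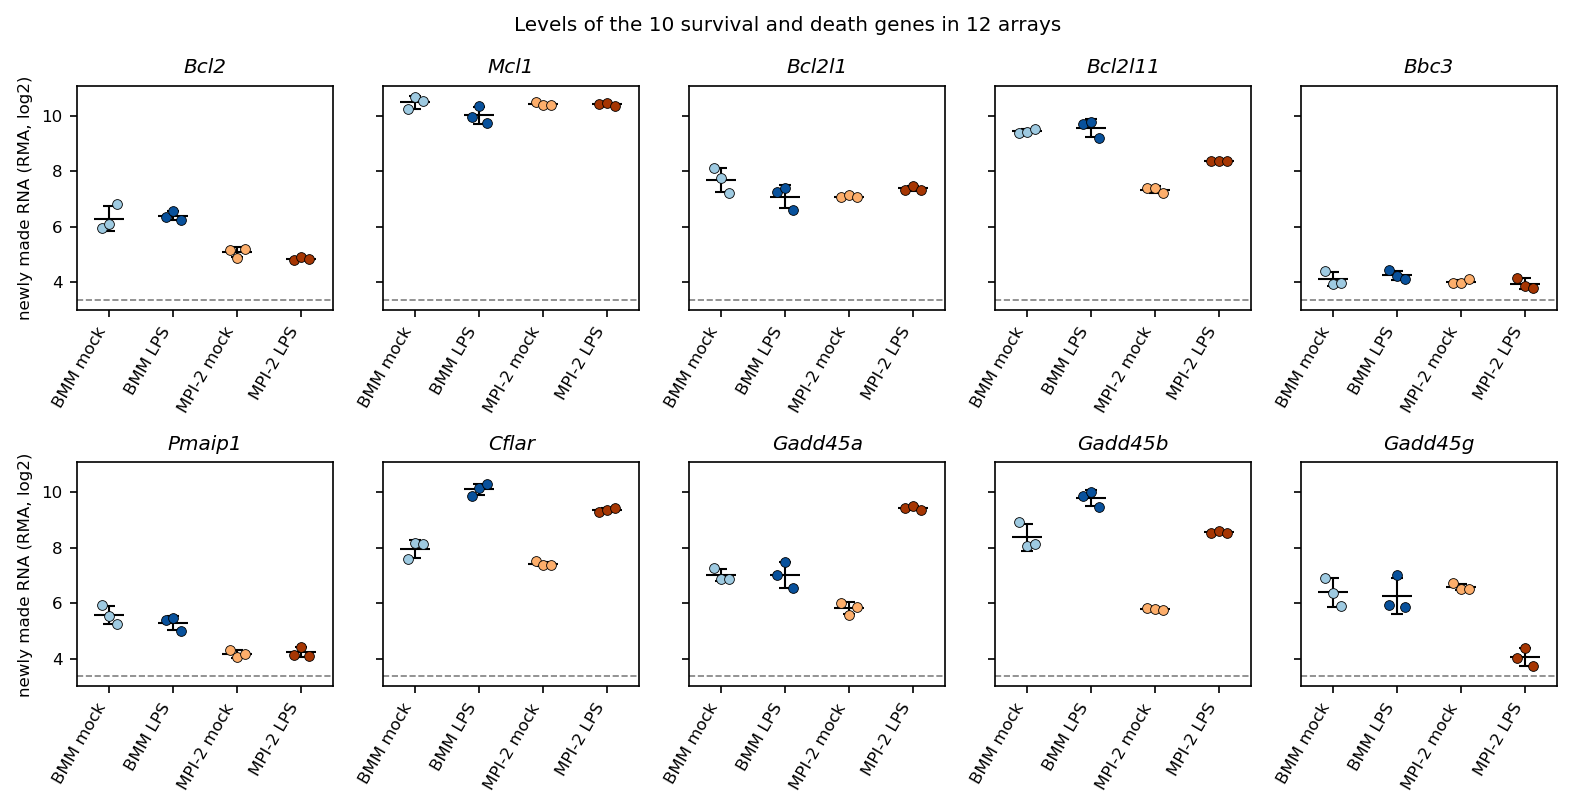
Each point is 1 array and the bars are the mean ± SD of 3 arrays, in log2 units of newly made RNA, for each gene (panel) and group (x axis); the dashed line is the background level of 3.36. Gadd45a rises from 5.82 to 9.44 and Gadd45g falls from 6.57 to 4.05 in MPI-2, while Cflar and Gadd45b rise in both cell types.

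Cflar rose in both cell types. It read 7.59, 8.16 and 8.13 in BMM mock and 9.88, 10.15 and 10.29 after LPS. In MPI-2 the mock arrays read 7.51, 7.39 and 7.38 and the LPS arrays 9.29, 9.37 and 9.45. Mock and LPS arrays did not overlap in either cell type. The rise was 2.14 ± 0.16 in BMM, or 4.41-fold (adjusted p = 4.83e-08), and 1.94 ± 0.16 in MPI-2, or 3.85-fold (adjusted p = 3.91e-07). The responses differed by -0.20 ± 0.22 (adjusted p = 0.70), with a 95% interval of -0.67 to 0.27. MPI-2 was lower than BMM in mock, -0.54 ± 0.16 (adjusted p = 0.0119), and after LPS, -0.74 ± 0.16 (adjusted p = 0.00114). The mock difference lost its call without BMM mock replicate 2 (-0.44, adjusted p = 0.0563) or replicate 3 (-0.45, adjusted p = 0.0528). The 2 further probe sets of Cflar rose by 1.91 ± 0.14 and 1.87 ± 0.19 in BMM and by 1.89 ± 0.14 and 2.36 ± 0.19 in MPI-2. They too were lower in MPI-2 mock than in BMM mock, by log2 changes of -0.42 ± 0.14 and -1.37 ± 0.19 (adjusted p = 0.0316 and 3.12e-05). The main probe set is numbered on the array beside that of Ankrd50 and apart from the other 2, so it may also read a similar sequence elsewhere in the genome.

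Among the pro-survival genes Bcl2 separated the cell types and did not pass for LPS in either. Bcl2, the founding member of the family, read 5.94, 6.11 and 6.81 in BMM mock and 6.36, 6.56 and 6.25 in BMM LPS. In MPI-2 it read 5.17, 4.87 and 5.18 in mock and 4.80, 4.91 and 4.82 after LPS. Every MPI-2 array was below every BMM array. The difference was -1.21 ± 0.19 in mock, or 2.32-fold (adjusted p = 7.06e-05), and -1.55 ± 0.19 after LPS, or 2.92-fold (adjusted p = 4.7e-06). LPS changed it by 0.10 ± 0.19 in BMM (adjusted p = 0.74; 95% interval -0.29 to 0.50) and by -0.23 ± 0.19 in MPI-2 (adjusted p = 0.566; -0.63 to 0.16).

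Mcl1, a short-lived pro-survival protein, spanned 0.929 over the 12 arrays, from 9.74 to 10.66. Its BMM mock arrays read 10.22, 10.66 and 10.54 and its BMM LPS arrays 9.96, 10.33 and 9.74, which overlap. In MPI-2 the 6 arrays lay within 10.36 to 10.48. Mcl1 fell in BMM after LPS, -0.47 ± 0.15 (adjusted p = 0.0341), and changed by -0.0065 ± 0.15 in MPI-2 (adjusted p = 0.989). The difference of the responses, 0.46 ± 0.22, did not pass (adjusted p = 0.218), and passed without BMM LPS replicate 2 (0.62, adjusted p = 0.0453) and under cyclic loess (0.58, adjusted p = 0.0484). The BMM decrease lost its call without mock replicate 2 (-0.38) or 3 (-0.44) or LPS replicate 1 (-0.44) or 3 (-0.33), and in a fit of the 6 BMM arrays by themselves (adjusted p = 0.146). After LPS Mcl1 was higher in MPI-2 than in BMM by 0.40 ± 0.15 (adjusted p = 0.0451). That call was lost without BMM LPS replicate 1 (0.37) or 3 (0.26), without MPI-2 LPS replicate 1 (0.40), 2 (0.38) or 3 (0.42), after quantile normalization (0.31) and under cyclic loess scaling of the arrays (0.095), and in the 6 LPS arrays alone (adjusted p = 0.0694). In mock the difference was -0.062 ± 0.15 (adjusted p = 0.78), and after cyclic loess it passed at -0.48 (adjusted p = 0.00827).

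Bcl2l1, which encodes Bcl-xL, read 8.10, 7.74 and 7.22 in BMM mock and 7.27, 7.38 and 6.59 in BMM LPS, again with overlap. In MPI-2 it read 7.07, 7.13 and 7.05 in mock and 7.33, 7.48 and 7.32 after LPS, where each LPS array exceeded each mock array by little. Bcl2l1 fell in BMM, -0.61 ± 0.21 (adjusted p = 0.0463), and the MPI-2 change of 0.30 ± 0.21 did not pass (adjusted p = 0.495). In a fit of the 6 MPI-2 arrays alone, which have the smaller spread, the latter passed (adjusted p = 0.0357). The BMM decrease lost its call without mock replicate 1 (-0.40) or 2 (-0.58) or LPS replicate 3 (-0.36), was -0.15 without mock replicate 1 and LPS replicate 3 together (adjusted p = 0.53), and lost it after cyclic loess (-0.51, adjusted p = 0.106), after quantile normalization (-0.62, adjusted p = 0.0505) and in the 6 BMM arrays alone (adjusted p = 0.164). The responses differed by 0.90 ± 0.30 (adjusted p = 0.0608). That difference passed when BMM mock replicate 3 (1.14) or LPS replicate 2 (1.05) was omitted, among genes above background (adjusted p = 0.0405) and after quantile normalization (0.98, adjusted p = 0.05). Mock MPI-2 was below mock BMM by -0.60 ± 0.21 (adjusted p = 0.0339), a call lost without BMM mock replicate 1 (-0.40) or 2 (-0.58) or MPI-2 mock replicate 1 (-0.60), 2 (-0.63) or 3 (-0.59). After LPS the cell types were at 7.38 ± 0.087 and 7.08 ± 0.43 (adjusted p = 0.259).

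Of the BH3-only genes among the 10 members, only Bcl2l11 both separated the cell types and responded to LPS. Bmf, outside the 10, also did both and is given below. Bcl2l11, which encodes Bim, a killer protein held low by growth factors, read 9.38, 9.43 and 9.52 in BMM mock and 9.69, 9.76 and 9.18 after LPS. In MPI-2 it read 7.40, 7.39 and 7.20 in mock and 8.38, 8.36 and 8.36 after LPS. The MPI-2 groups did not overlap each other or the BMM groups, and the BMM groups overlapped. Bcl2l11 rose in MPI-2 by 1.04 ± 0.14, or 2.05-fold (adjusted p = 0.000111). In BMM it changed by 0.11 ± 0.14 (adjusted p = 0.647; 95% interval -0.20 to 0.41). The responses differed by 0.93 ± 0.20 (adjusted p = 0.00552). MPI-2 was below BMM by -2.11 ± 0.14 in mock, or 4.32-fold (adjusted p = 1e-08), and by -1.18 ± 0.14 after LPS, or 2.27-fold (adjusted p = 5.54e-06). The order of levels was thus BMM LPS (9.55 ± 0.32) and BMM mock (9.44 ± 0.07), which did not differ beyond their spread, then MPI-2 LPS (8.37 ± 0.012) and MPI-2 mock (7.33 ± 0.12).

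Pmaip1, which encodes the Mcl-1 antagonist Noxa, read 5.92, 5.54 and 5.25 in BMM mock and 5.39, 5.45 and 5.01 after LPS. In MPI-2 it read 4.32, 4.04 and 4.14 in mock and 4.13, 4.43 and 4.11 after LPS. All MPI-2 arrays lay below all BMM arrays. The difference was -1.40 ± 0.17 in mock, or 2.64-fold (adjusted p = 7.99e-06), and -1.06 ± 0.17 after LPS, or 2.09-fold (adjusted p = 0.000119). Its LPS changes were -0.29 ± 0.17 in BMM (adjusted p = 0.262) and 0.054 ± 0.17 in MPI-2 (adjusted p = 0.926). Bbc3, which encodes Puma, ranged from 3.79 to 4.43 over the 12 arrays, close to background, where a change is understated. Its 4 group means ran from 3.94 to 4.24 and overlapped, and no comparison passed (adjusted p from 0.106 to 0.885). Without BMM mock replicate 1 and LPS replicate 3 it was lower in MPI-2 than in BMM after LPS (-0.38, adjusted p = 0.0299). Its LPS changes were 0.14 ± 0.15 in BMM and -0.067 ± 0.15 in MPI-2.

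Counted together, 4 of the 10 genes passed for LPS in BMM, where 25.7% of all genes did: Cflar and Gadd45b rose (10.3% of all genes rose) and Mcl1 and Bcl2l1 fell (15.4% fell). Only the 2 increases were called with the 6 BMM arrays alone, without BMM mock replicate 2, or without BMM LPS replicate 3. In MPI-2 5 of the 10 passed, where 14.8% of all genes did: Gadd45a, Gadd45b, Cflar and Bcl2l11 rose (5.17% of all genes rose) and Gadd45g fell (9.58% fell). The median change of the 10 was 0.054 in BMM and 0.17 in MPI-2, beside 0.043 and 0.020 over all genes. The response differed between the cell types for 4 of the 10 (Gadd45a, Gadd45b, Bcl2l11 and Gadd45g), against 13.4% of all genes. By the sign of the MPI-2 minus BMM difference, 3 of the 10 were higher and 1 lower, against 7.08% and 6.27% of all genes. A higher sign also covers genes that fell by less in MPI-2. Without BMM LPS replicate 2 the count of members that differed was 6. In the same comparison 8 of the 10 macrophage markers had the higher response in MPI-2 and 1 the lower, with a median difference of 0.88, and their part in the result was not tested.

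**Figure D2:**
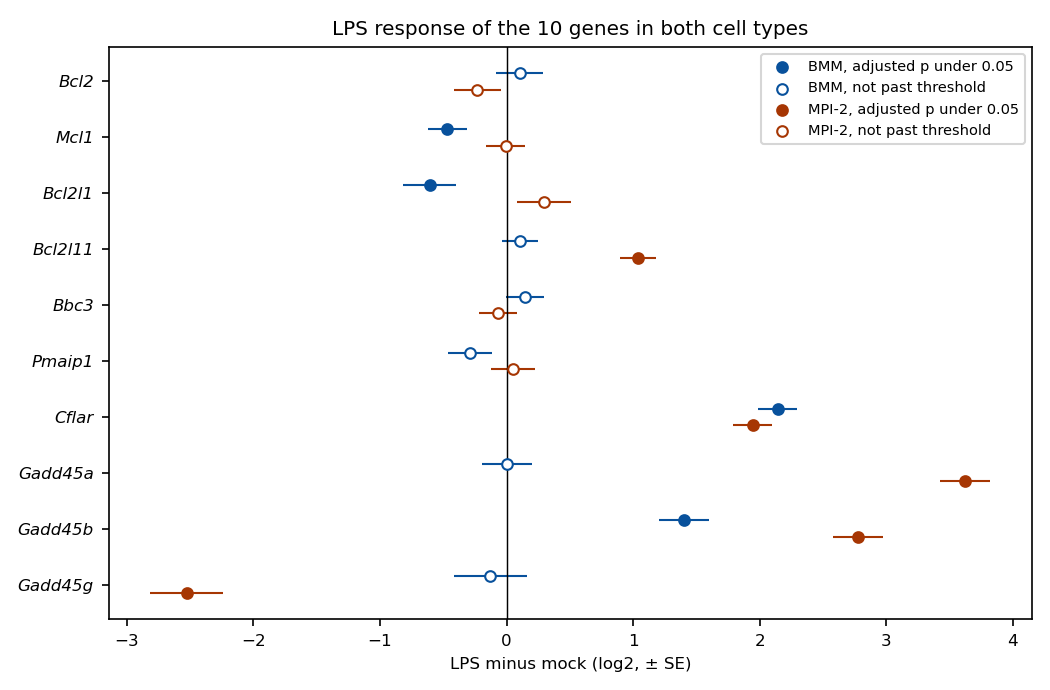
Change of each gene after LPS, as LPS minus mock on the log2 scale (x axis) ± SE, in BMM (blue) and MPI-2 (brown); filled points passed at an adjusted p under 0.05. Cflar sits near 2 in both cell types, at 2.14 and 1.94, whereas Gadd45a sits at 3.62 in MPI-2 and at 0.0042 in BMM.

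Between the cell types, 7 of the 10 genes passed as lower in mock MPI-2 and none as higher, where 38.6% of all genes passed, 18.0% as lower and 20.6% as higher. The 7 were Bcl2, Bcl2l1, Bcl2l11, Pmaip1, Cflar, Gadd45a and Gadd45b. They hold pro-survival as well as killer genes. After LPS 6 were lower in MPI-2 and 2 higher (Gadd45a and Mcl1), where 44.1% of all genes passed, 21.6% as lower and 22.5% as higher. The median difference of the 10 was -0.90 in mock and -0.90 after LPS, beside -0.10 and -0.14 over all genes. The macrophage markers lay lower in MPI-2 mock by a like amount, with 7 of 10 lower, 1 higher and a median of -0.90. After LPS 4 of them were lower and 3 higher (median -0.25). Their part in the differences of the 10 genes was not tested. Cyclic loess brought those all-gene medians to -0.0074 and -0.0089 and changed the direction of no called member. These comparisons share arrays with the LPS comparisons, so their calls are not independent of them.

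For each gene the genes with the most similar profile over the 12 arrays were taken from 11328 named genes above background, as a description in which the 4 groups supply most of the variation. Gadd45a was most like Ier3, a stress-induced early gene (r = 0.991), and Slc1a2 (0.960). Gadd45b was most like Cd14, the LPS co-receptor (0.967), and the chemokine-binding receptor gene Ccrl2 (0.960). Gadd45g was most like Plekha2 (0.939). Cflar was most like the kinase gene Jak2 (0.987) and the phosphatase gene Ptprj (0.982). Bcl2l11 was most like Ptafr and C5ar1, which encode the receptors for platelet-activating factor and complement C5a (0.989 and 0.985). Pmaip1 was most like Rnase6 (0.990) and the transcription factor gene Irf8 (0.983), and Bcl2 was most like Elmo1 (0.977). Likeness was lower for Mcl1 (Ppp1r7, 0.951), Bbc3 (Tlx2, 0.903) and Bcl2l1 (Epg5, 0.901).

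Other Bcl-2 family genes were read from lists. Of 5 further pro-survival genes listed 2 were measured. Bcl2l2 lay between 4.89 and 5.28 in group means and Bcl2l10 between 2.26 and 2.38, under background, and neither passed in any comparison. Bcl2a1a, Bcl2a1b and Bcl2a1d were not among the genes measured, so their response to LPS is not known here. Of the pore-forming proteins, Bak1 fell in MPI-2 after LPS, -0.84 ± 0.22 (adjusted p = 0.0144), with -0.059 ± 0.22 in BMM. Omitting mock replicate 3 or LPS replicate 2 or 3 of MPI-2 ended the Bak1 call (-0.78 to -0.94 over all arrays omitted in turn). The related Bok, at 4.42 in BMM mock and 4.22 in MPI-2 mock, did not pass. Bax was listed with them and was not among the genes measured. Among 12 other genes with a BH3 or related motif 4 fell in BMM and none rose, where 15.4% of all genes fell and 10.3% rose. In MPI-2 1 of the 12 fell, a share near the 9.58% of all genes that fell there. Bmf, a BH3-only gene, fell in BMM, -1.57 ± 0.16 (adjusted p = 1.75e-06), and changed by -0.23 ± 0.16 in MPI-2. In mock it was lower in MPI-2, at 4.75 against 6.46, a difference of -1.71 ± 0.16 (adjusted p = 3.38e-07). The mitophagy receptor gene Bnip3l fell in BMM, -1.33 ± 0.18, and changed by -0.084 ± 0.18 in MPI-2. Both responses differed between the cell types, by 1.33 ± 0.22 (adjusted p = 0.000707) and 1.25 ± 0.25 (adjusted p = 0.003). Bnip3 fell in both, -0.85 ± 0.21 and -1.28 ± 0.21, and Mtch2, which helps recruit Bid to mitochondria, fell in BMM, -0.62 ± 0.18 (-0.43 to -0.80 with arrays omitted in turn). The Mtch2 call ended on omitting mock replicate 2 or 3 or LPS replicate 3 of BMM. Bcl2l13 was higher in MPI-2 than in BMM by 2.70 ± 0.26 in mock and 2.35 ± 0.26 after LPS. Bad, Bid, Bik, Hrk, Bcl2l12, Bcl2l14 and Bcl2l15 did not pass for LPS in either cell type.

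c-FLIP acts on the death receptor route. Of 12 measured genes for death receptors and their partners 9 rose and 1 fell in BMM, with a median of 0.84, where 10.3% of all genes rose. Of the 9, Tnfrsf10b was under background in both BMM groups (2.99 and 3.363) and lost its call in 5 of 6 omissions of 1 array (0.29 to 0.47). In MPI-2 3 of the 12 rose and 2 fell, with a median of -0.049, where 5.17% of all genes rose and 9.58% fell. After cyclic loess the BMM counts were 7 and 0. Fas, a death receptor, rose in both, by 2.52 ± 0.13 and 1.87 ± 0.13, as did Traf1, an adaptor with NF-kB-driven expression, by 2.76 ± 0.12 and 2.43 ± 0.12. Tnfsf10, which encodes the ligand TRAIL, rose by 2.90 ± 0.13 in BMM and was under background in both MPI-2 groups (2.74 and 2.57). Mlkl, the executor of necroptosis, rose by 3.07 ± 0.16 in BMM and was at 3.34 and 3.31 in MPI-2, also under background. Its upstream kinase gene Ripk3 rose in BMM, 1.28 ± 0.16, and fell in MPI-2, -0.87 ± 0.16. The TNF receptor gene Tnfrsf1a did the same, 0.96 ± 0.20 and -0.87 ± 0.20, and both differed between the cell types, by -2.15 ± 0.23 (adjusted p = 8.74e-06) and -1.82 ± 0.28 (adjusted p = 0.000295).

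**Figure D3:**
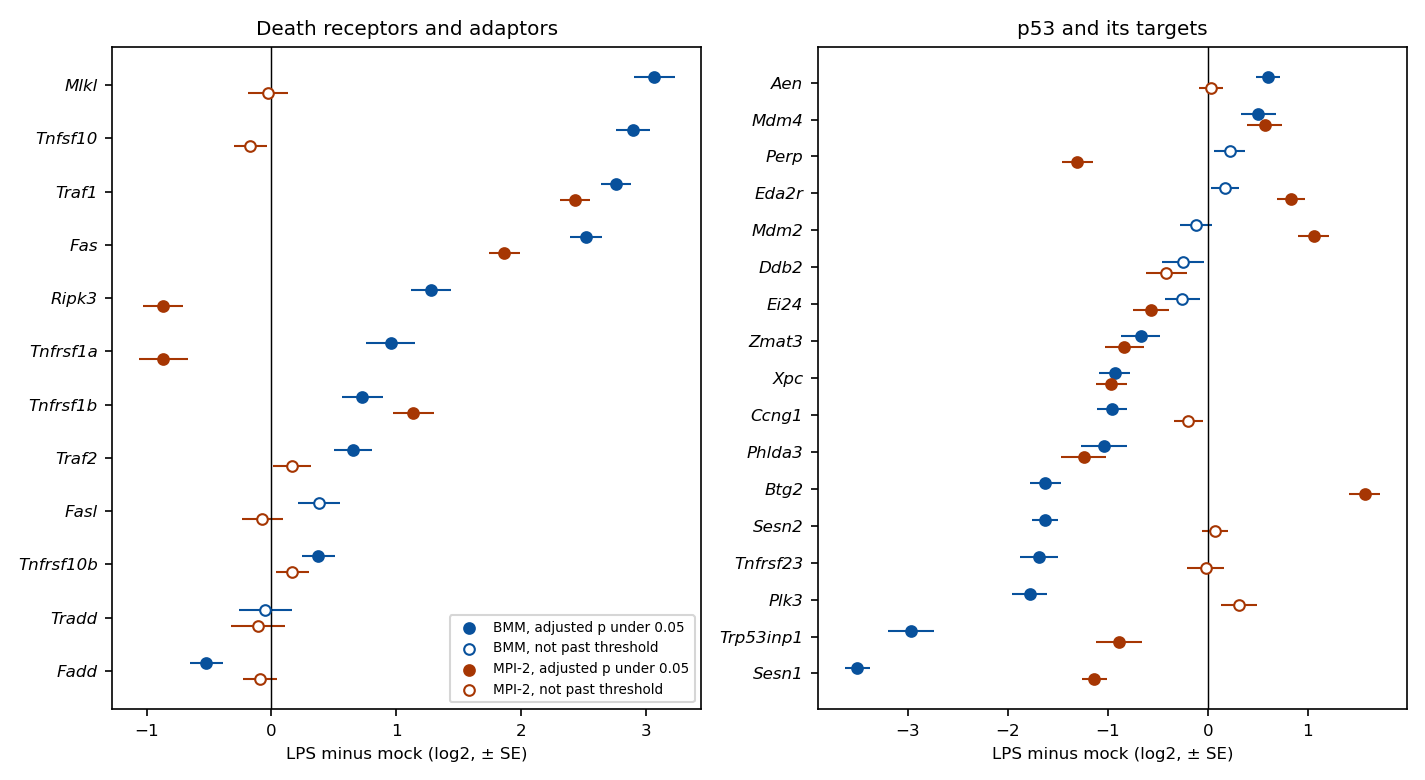
LPS minus mock on the log2 scale (x axis) ± SE for genes of the death receptor list and of the p53 list, in BMM (blue) and MPI-2 (brown), ordered by the BMM change; filled points passed at an adjusted p under 0.05. Ripk3 and Tnfrsf1a lie right of 0 in BMM and left of it in MPI-2, and Btg2 the other way round, at -1.62 in BMM and 1.57 in MPI-2.

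Of 12 measured genes for caspases and the apoptosome, 8 fell and none rose in MPI-2, with a median of -0.53, where 9.58% of all genes fell. Of these 8, Casp6, Casp8, Casp9, Apaf1 and Dffb each lost the call without some 1 array of MPI-2. In BMM 3 of the 12 rose and 4 fell, with a median of -0.12, where 10.3% of all genes rose and 15.4% fell. After cyclic loess 6 fell in MPI-2. Casp2 fell in both cell types, -1.34 ± 0.20 in BMM and -0.83 ± 0.20 in MPI-2. Htra2, a mitochondrial protease, rose in BMM, 1.44 ± 0.17, and fell in MPI-2, -0.93 ± 0.17, a difference of -2.37 ± 0.24 (adjusted p = 5.71e-06). Apaf1, the scaffold of the apoptosome, rose in BMM, 0.63 ± 0.16, and fell in MPI-2, -0.58 ± 0.16. The MPI-2 decrease of Apaf1 lost its call without either of MPI-2 mock replicates 1 and 2 or MPI-2 LPS replicates 1 and 2 (-0.51 to -0.62 over the arrays left out). Of 7 inhibitors of apoptosis 4 rose and 1 fell in BMM, where 10.3% of all genes rose, and 1 rose in MPI-2, where 5.17% did. The BMM calls of Xiap and Naip2, which rose, and of Birc5, which fell, were each lost without some 1 array of BMM. Birc3, which encodes the ubiquitin ligase cIAP2, rose in both, by 0.71 ± 0.13 and 0.77 ± 0.13, and its neighbour in function Birc2 rose in BMM, 1.04 ± 0.17, with 0.056 ± 0.17 in MPI-2.

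Of 19 genes of the p53 list 17 were measured, and Trp53 and Cdkn1a were not. Of the 17, 10 fell and 2 rose in BMM (median -0.93), where 15.4% of all genes fell and 10.3% rose. In MPI-2 7 fell and 4 rose (median -0.19), where 9.58% of all genes fell and 5.17% rose, so that decreases outnumbered increases over all genes too. The BMM calls of Mdm4 and Zmat3 were lost in 4 and 2 of 6 omissions of 1 array. The MPI-2 calls of Ei24, Mdm4, Trp53inp1 and Zmat3 were lost in 6, 5, 3 and 1 of 6. Sesn1, a stress-induced regulator of the growth kinase mTORC1, fell in BMM, -3.51 ± 0.12, and in MPI-2, -1.13 ± 0.12. Sesn2 fell in BMM, -1.63 ± 0.13, and was 0.068 ± 0.13 in MPI-2. Mdm2, the ubiquitin ligase for p53, rose in MPI-2 by 1.06 ± 0.16, with -0.12 ± 0.16 in BMM. Btg2, an antiproliferative early gene, fell in BMM, -1.62 ± 0.16, and rose in MPI-2, 1.57 ± 0.16, a difference of 3.19 ± 0.22 (adjusted p = 1.23e-07). Perp, which encodes a membrane protein, was near or under background in BMM (3.18 and 3.40) and fell in MPI-2 from 7.60 to 6.29. In all, 9 of the 17 responses were higher and 2 lower in MPI-2 than in BMM, against 7.08% and 6.27% of all genes. Of these 11 calls, those of Ccng1, Aen and Eda2r were lost in 7, 8 and 9 of 12 omissions of 1 array. A higher response here also covers genes that fell in BMM and did not pass in MPI-2, such as Sesn2. It covers genes that fell by less in MPI-2 too, such as Sesn1.

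**Figure D4:**
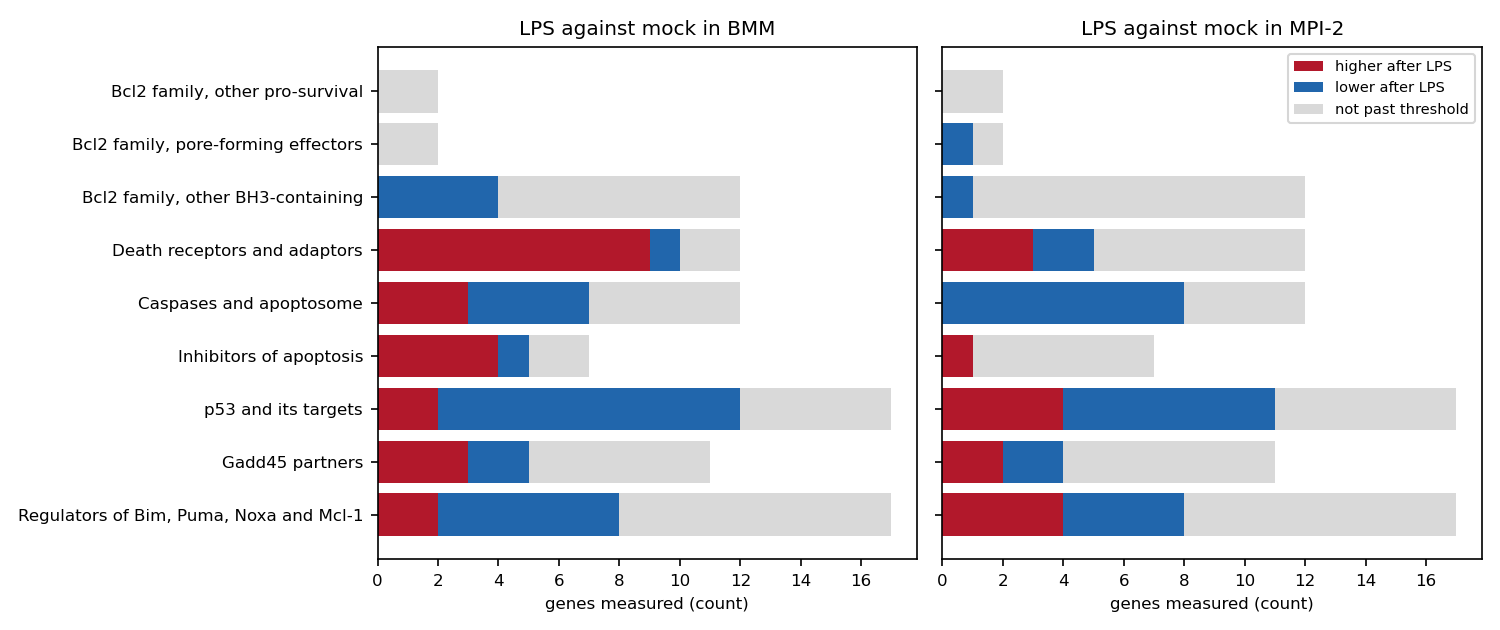
Number of measured genes (x axis) in each of 9 lists around the 10 members that passed as higher or lower after LPS or did not pass, in BMM (left) and MPI-2 (right). The death receptor list has 9 of 12 genes higher in BMM and 3 in MPI-2, and the caspase and apoptosome list 8 of 12 lower in MPI-2.

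Over the 9 lists, 92 of 103 genes were measured. In BMM 23 rose and 28 fell (median -0.073), where 25.7% of all genes passed in either direction and their median was 0.043. In MPI-2 14 rose and 25 fell (median -0.068), where 14.8% of all genes passed and their median was 0.020. Among the other lists, that of Gadd45 partners had 3 higher and 2 lower of 11 in BMM, where 10.3% of all genes were higher and 15.4% lower. In MPI-2 it had 2 higher and 2 lower, where 5.17% and 9.58% of all genes were. Ppp1r15a, which is not of the Gadd45 family, was on this list and counts among the genes higher in each cell type. In MPI-2 Mapk14 (higher) lost its call in 5 of 6 omissions of 1 array and Map2k3 (lower) in 6 of 6. In BMM Mapk14 (higher) lost its call without mock replicate 1. Map3k4, the MAP kinase kinase kinase that Gadd45 proteins bind and activate, fell in MPI-2, -0.78 ± 0.15 (adjusted p = 0.00202), and was -0.42 ± 0.15 in BMM (adjusted p = 0.0589). Map2k4, a kinase upstream of JNK, rose in BMM, 1.12 ± 0.17, and was 0.16 ± 0.17 in MPI-2, a difference of -0.96 ± 0.24 (adjusted p = 0.0126). Cdk1, which Gadd45 proteins can inhibit, was higher in MPI-2 than in BMM by 3.01 ± 0.19 in mock and 3.86 ± 0.19 after LPS.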

How the data were processed

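Newly made RNA of 12 samples was hybridised to whole-transcript arrays, 200 ng each, per the labels' protocols. The authors deposited log2 values per probe set, made with RMA and affy per the submitters' processing notes (versions and run structure not given in the sources used here); the log base was taken from the method and the range, 1.18 to 12.82. RMA forces the arrays to a like distribution, so an overall change in RNA synthesis is removed. Of 34760 probe sets, 21640 name 1 gene, 1321 several and 11799 are unnamed here; symbols were updated by Entrez identifier against RefSeq (GRCm38.p6; 19855 matched). With arrays there are no reads to count, and precision is set by how many there are.

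With limma 3.58.1 (R 4.3.3), a model of 4 group means took all 12 arrays together (8 residual and 6.99 prior degrees of freedom) and gave 5 comparisons. It was run on simulated data in which all groups had the same spread for a gene. That run could not check the use of a shared spread. Members, lists and alternatives were chosen with earlier results of these data known. All 10 members are named, every member of the Bcl-2 family lists, and others from up to 4 genes per list and comparison with the smallest adjusted p past 0.05. Alternatives were cyclic loess, quantile normalization, a background filter, the mean of probe sets, a trended robust prior, a replicate block, the compared arrays alone and leaving arrays out. Same-numbered arrays of different groups deviated together at r above 0.1 in 2 of 18 pairs, and differently numbered ones in 11 of 36. The replicate numbers were therefore not taken to pair the arrays. The highest r, 0.242, was between BMM mock 1 and BMM LPS 1, and so few arrays cannot exclude pairing.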

Additional observations from a re-analysis of the deposited data

Results flagged for a closer look

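For 4 of the 10 genes the LPS response itself differed between MPI-2 and BMM in the limma interaction test, where 13.4% of all genes passed. In that test 8 of 10 macrophage markers also had the higher response in MPI-2 (median difference 0.88, about the size of that of Bcl2l11), and their part was not tested. The response of Gadd45a was larger in MPI-2 by log2 3.62, from changes of 3.62 there and 0.0042 in BMM. That of Gadd45b was larger by 1.37, although the gene rose in both cell types. That of Bcl2l11 was larger by 0.93, with the BMM level already the higher one before LPS. That of Gadd45g was lower by -2.40, with an SD of 0.646 among the BMM arrays after LPS. Each of these passed without any 1 of the 12 arrays, with the highest adjusted p 0.0199 (Bcl2l11). BMM arrays had the larger spread, and its part in these differences was not tested.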

How the results depend on the processing

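Each of the 10 genes kept its direction in each comparison in which it was called, under every alternative run. The calls of Gadd45a, Gadd45b, Gadd45g and Bcl2l11, of Cflar for LPS, and of Bcl2 and Pmaip1 between cell types held under all of them; the marginal calls were those of Mcl1, Bcl2l1 and, in mock, Cflar. Over all alternatives, values of single genes lost a call 28 times and gained one 10 times. For LPS in BMM the count of called members was 4, fell to 2 with the 6 BMM arrays alone, and ranged from 2 to 4 when each array was left out. The titles' replicate numbers as a replicate block gave 4 called members for LPS in BMM and 5 in MPI-2. They gave 7 and 8 between cell types in mock and LPS. For the difference of responses they gave 5, where Bcl2l1 was added (0.90, adjusted p = 0.0242). Whether those numbers pair the arrays is not known, and for MPI-2 mock the descriptions number them differently from the titles. Of the pathway genes called, 9 of 51 in BMM and 16 of 39 in MPI-2 lost their LPS call without some 1 array. Changes of genes near the background level, such as Bbc3, are understated.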

Other observations

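Genes that regulate Bim, Puma, Noxa or Mcl-1 were followed as a separate list. In BMM 2 of 17 rose and 6 fell after LPS, where 10.3% of all genes rose and 15.4% fell, so the share that rose was near that of all genes. In MPI-2 4 rose and 4 fell, where 5.17% of all genes rose and 9.58% fell. Of those that rose in MPI-2, Pim1 lost its call in 6 of 6 omissions of 1 array and Atf3 in 4 of 6, and Stat5a is given below. Tsc22d3, a glucocorticoid-induced gene, fell in both, -2.27 ± 0.14 and -0.99 ± 0.14. Foxo3, a transcription factor that can activate Bcl2l11 and Bbc3, fell in BMM, -2.03 ± 0.20, and by less in MPI-2, -0.69 ± 0.20, a difference of 1.34 ± 0.29 (adjusted p = 0.00517). The MPI-2 decrease of Foxo3 was still called when MPI-2 mock replicate 2 was omitted and not when any of the other 5 was (-0.55 to -0.79). Stat5a, a mediator of GM-CSF signalling, rose in BMM by 2.23 ± 0.14, with 0.44 ± 0.14 in MPI-2 (adjusted p = 0.0465); the latter did not pass when any MPI-2 array was omitted (0.39 to 0.50). Ddit3, the stress factor CHOP, fell in BMM, -1.48 ± 0.22, and was 0.32 ± 0.22 in MPI-2 (adjusted p = 0.474). The kinase gene Pim2 rose in MPI-2, 0.83 ± 0.16, and was -0.40 ± 0.16 in BMM (adjusted p = 0.0837). Ppp1r15a, also called Gadd34, shares a name but no family with the Gadd45 genes and relieves stress-induced blocks of translation. It rose in BMM by 2.77 ± 0.14 and in MPI-2 by 0.67 ± 0.14, a difference of -2.11 ± 0.20 (adjusted p = 3.01e-06), so that BMM had the larger response where Gadd45a and Gadd45b had the larger one in MPI-2.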
